A study of Homo sapiens with 6 samples.

Results

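The 5' fragments of tRNA-Gly-GCC, the transfer RNA that carries glycine to GGC codons, were described by length in A375 cells with and without DUS1L. Members were all rows typed as 5' tRF or 5'-half whose code began with PNR8YP and whose length was 19 nt or more. The code is a MINTbase licence plate, a name that spells out the sequence, and PNR8YP stands for the first 15 bases. The rule found 23 of 3443 rows, 17 typed as 5' tRF and 6 as 5'-half, with lengths from 19 to 37 nt. These 23 rows held 37214 of 126840 counts in the 6 libraries, or 29.3%.

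A375 is an established human melanoma line. The counts came from small RNA libraries made from total RNA, 3 of wild-type cells kept in parallel without targeting and 3 of cells carrying a CRISPR/Cas9 knockout of DUS1L selected as clones. The submitters call the libraries biological replicates but do not state the number of clones behind the knockout, so the tests speak of these libraries and not of clones. The comparison asks which fragments differ when DUS1L is lost.

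DUS1L reduces uridine to dihydrouridine in the D-loop, the loop nearest to the 5' end of a folded tRNA, where its sites are numbered 16 and 17. A 5' tRNA fragment begins at the first base and ends where the tRNA was cut. Cuts in the anticodon loop, made for example by the ribonuclease angiogenin under stress, leave 5'-halves, and those of tRNA-Gly-GCC are among the most common tRNA fragments in human cells and body fluids. Ends further upstream give shorter 5' tRFs.

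The following sequences are shown because the length series turns on where they end. The last base is in capitals, T stands for U, and all were decoded from the deposited names. They are the 4 most abundant members, the members called different in the knockout and the longest member.
tRF-25-PNR8YP9LON: gcattggtggttcagtggtagaatT
tRF-26-PNR8YP9LOND: gcattggtggttcagtggtagaattC
tRF-28-PNR8YP9LOND5: gcattggtggttcagtggtagaattctC
tRF-30-PNR8YP9LON4V: gcattggtggttcagtggtagaattctcgC
tRF-31-PNR8YP9LON4VD: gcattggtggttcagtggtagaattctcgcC
tRF-32-PNR8YP9LON4V3: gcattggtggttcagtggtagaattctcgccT
tRF-34-PNR8YP9LON4VHM: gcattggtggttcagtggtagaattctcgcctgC
tRF-37-PNR8YP9LON4VN11: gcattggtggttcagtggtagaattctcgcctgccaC

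Counted from the first base, the D-loop covers bases 14 to 20, the 5' strand of the anticodon stem bases 26 to 30 and the anticodon loop bases 31 to 37. The D-loop holds T at bases 16 and 19, and bases 17 and 18 are G. Because the rule starts at 19 nt, all members contain base 16 and none can end before the second T of the loop. The longest member matched 2 tRNA genes that overlap annotated transcripts, both from base 1 of the gene and both on the minus strand of GRCh38. One was TRG-GCC2-1 (chromosome 1, bases 161523847 to 161523917). The other was TRG-GCC2-4, which lies at bases 70779039 to 70779109 of chromosome 16. The RefSeq annotation lists 13 TRG-GCC genes on 6 chromosomes, and the sequences of the other genes were not analysed here.

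The members fell into 2 sequence forms that part at base 33. The 14 members of up to 32 nt are common to both forms, 5 members carry GCC at bases 33 to 35 as far as they reach, and 4 differ from these by the substitution G33C, counted from the first base. The 2 forms are shown at 36 nt with the anticodon positions in capitals.
tRF-36-PNR8YP9LON4VN1B: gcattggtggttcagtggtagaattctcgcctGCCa
tRF-36-PNR8YP9LON4V4RB: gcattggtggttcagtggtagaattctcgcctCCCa
The second reads CCC in the anticodon. Human tRNA-Gly-CCC is known to share the 5' part of tRNA-Gly-GCC, but this form matched none of the transcripts searched, so its name rests on background knowledge. The name Gly-GCC thus holds for the members of 33 nt or more with G at base 33, while members of up to 32 nt can come from either tRNA.

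Among members of 33 nt or more, where the forms can be told apart, the CCC form was a small part in every library. It made up 63 of 1535 counts in wild-type replicate 1, 38 of 822 in replicate 2 and 27 of 562 in replicate 3. In knockout replicates 1 to 3 it made up 23 of 795, 23 of 443 and 36 of 959. The lowest share was 2.89% in knockout replicate 1 (95% Wilson interval 1.94% to 4.30%) and the highest 5.19% in knockout replicate 2 (3.48% to 7.67%). These intervals cover only the counting error of reads, which carried no molecular identifiers. They overlap, but both come from knockout libraries and do not compare the genotypes. With shares this low in every library, the GCC form made up most of the long members in both genotypes.

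Library totals ran from 15742 to 32754 counts. The members' share of these was 36.5%, 33.97% and 23.4% for wild-type replicates 1 to 3, and 26.7%, 23.4% and 27.3% for knockout replicates 1 to 3. Wild-type replicate 3 stood apart from the other wild-type libraries. Over member counts, its chi-square per degree of freedom was 13.0 against replicate 1 and 15.2 against replicate 2, compared with 4.79 between those 2 and 3.07 to 9.59 between knockout libraries. Its values against knockout replicates 1 to 3 were 12.7, 14.4 and 8.43. Those for knockout replicates 1 and 3 were lower than against either other wild-type library. Over all fragments, however, wild-type replicate 3 was nearer wild-type replicates 1 and 2 (8.2 and 5.8) than knockout replicates 1 to 3 (14.9, 10.4 and 10.0). Results are also given without it. This library was picked out from the member counts themselves and in them was the wild-type library nearest the knockout. Lower p-values without it therefore describe dependence on 1 library and add no evidence of a difference. Since counts are shares of a library, less of a fragment and more of all others cannot be told apart.

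Counts were concentrated at 3 lengths. The forms of 28, 31 and 32 nt together made up 68.4% to 72.0% of member counts in the wild-type libraries and 67.7% to 73.0% in the knockout libraries. The form of 28 nt ends inside the anticodon stem and those of 31 and 32 nt end at the first bases of the anticodon loop. Between them, the forms of 29 and 30 nt were each 8.77% or less of member counts in every library.

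The series had a sharp lower edge. For wild-type replicates 1 to 3, the form of 28 nt had 29.1, 89.7 and 30 times the counts of the form of 27 nt, which is 1 base shorter. In knockout replicates 1 to 3 these ratios were 11.03, 6.57 and 13.3, below every wild-type library, a description without a test. The 6 lengths from 19 to 24 nt, which end in the D-loop or in the 3' strand of the D stem, together had 8 to 21 counts per library. Few reads thus ended at bases 19 to 24, in either genotype. No row was shorter than 16 nt, so ends before base 16 could not be seen. On the edge of the rule, the form of 19 nt had 0 to 5 counts per library, and the forms of 18, 17 and 16 nt just outside it had 0 to 2, 0 to 3 and 3 to 9.

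At the upper edge, counts dropped after 35 nt. The GCC form of 36 nt had 4 to 20 counts per library, that of 37 nt 0 to 3, and no member was longer, although the table holds fragments of up to 50 nt. Where a member had 0 counts, 3 counts mark the limit, which is 0.00916% of the largest library and 0.0191% of the smallest. By last base, members ending in C were 59.4% ± 2.84 of the wild-type and 50.9% ± 3.82 of the knockout member counts (SD, 3 libraries each). Those ending in T, mostly the form of 32 nt, made up 25.8% ± 5.49 and 36.6% ± 4.88. The groups overlapped for T, with wild-type replicate 3 (31.9%) above knockout replicate 3 (31.1%).

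In the knockout, members ending in the anticodon loop had a higher summed share, which the single forms did not all follow. Members ending in the loop (31 to 37 nt) made up 60.8%, 60.3% and 64.1% of member counts in wild-type replicates 1 to 3. In knockout replicates 1 to 3 they made up 71.8%, 71.3% and 67.9%. Every knockout library lay above every wild-type library, with means of 61.7% ± 2.10 and 70.3% ± 2.15 (SD, n = 3 each).

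Members ending in the anticodon stem (26 to 30 nt) had a lower share in every knockout library than in any wild-type library. Their share was 38.8%, 39.4% and 35.2% in wild-type replicates 1 to 3 and 27.4%, 27.6% and 31.4% in knockout replicates 1 to 3. Members of 19 to 25 nt were rare but higher in each knockout library, at 0.410%, 0.299% and 0.649% in wild-type and 0.756%, 1.04% and 0.683% in knockout replicates 1 to 3. For each of these 3 shares the exact permutation p, two-sided, was 0.1, also after adjustment over the 3 classes. No lower p is possible with 3 libraries on each side, so no single share could pass 0.05. With the class limits moved by 1 base, which takes the form of 25 nt out of the shortest class, the difference of that class shrank from 0.373 to 0.0350 points and the groups overlapped.

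The balance of the 2 main classes does not depend on scaling between libraries. The log2 ratio of loop-ending to stem-ending counts was 0.65, 0.61 and 0.87 in wild-type replicates 1 to 3 and 1.39, 1.37 and 1.11 in knockout replicates 1 to 3. The groups did not overlap, and the mean difference was 0.58 (exact permutation p = 0.1, two-sided), or 0.66 without wild-type replicate 3. Mean member length was 30.66 nt ± 0.0933 (SD, n = 3) for wild-type cells and 30.97 nt ± 0.0576 (SD, n = 3) for the knockout. There was no overlap, and the exact permutation p was 0.1. The class shares, the loop-to-stem ratio and the mean length describe the same counts and are not independent results. Mean length also did not overlap in the like 5' families compared below, where it was not tested. It was 24.89 nt in wild-type and 25.33 nt in knockout libraries for the Gly family with 1 base changed. For Val it was 27.32 and 28.22 nt, and for Glu, which went the other way, 28.90 and 28.51 nt.

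Fragment by fragment, 13 of the 23 members had enough counts to be tested across the whole table with edgeR's quasi-likelihood test and Benjamini-Hochberg adjustment, and 10 did not. Of the 13, 2 were higher and 2 lower in the knockout at an adjusted p under 0.05. Of all 235 fragments tested, 53.6% were called, 25.5% higher and 28.1% lower, so the members were called less widely than the table as a whole, a description and not a test. Their median log2 fold change was -0.36, beside -0.01 over all tested fragments. Levels below are counts per 1e6 counts (CPM) after edgeR's TMM scaling, which evens out differences in composition between libraries, and n = 3 per genotype.

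Of the 3 forms just below the lower edge, those of 25 and 26 nt rose and that of 27 nt missed the threshold. The form of 26 nt, which ends at the first base of the anticodon stem, was counted 17, 10 and 13 times in wild-type replicates 1 to 3, and 32, 41 and 36 times in knockout replicates 1 to 3. As levels these were 584, 664 and 619 CPM against 1574, 2424 and 1555 CPM, with every knockout library above every wild-type one. The log2 fold change was 1.56 (SE 0.319, edgeR adjusted p = 0.00249). Without each library in turn the adjusted p stayed between 0.00402 and 0.0140.

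The form of 25 nt, which ends between the D stem and the anticodon stem, had 28, 8 and 20 counts in wild-type and 32, 28 and 34 in knockout replicates 1 to 3. Its level was 963, 531 and 953 CPM against 1574, 1655 and 1469 CPM, again with no overlap. The log2 fold change was 0.90 (SE 0.313, edgeR adjusted p = 0.0313). Leaving out wild-type replicate 2 ended that call (edgeR adjusted p = 0.133), as did leaving out knockout replicate 1 (0.0507), 2 (0.0953) or 3 (0.0542) and DESeq2's Wald test (0.0993).

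The form of 27 nt was counted 92, 14 and 30 times in wild-type and 69, 77 and 71 times in knockout replicates 1 to 3. In CPM, wild-type replicate 1 (3163) lay within the knockout range (3067 to 4552), while wild-type replicates 2 and 3 (930 and 1429) lay below it. Its log2 fold change of 0.94 (SE 0.393) missed the threshold, with an edgeR adjusted p of 0.0622, and passed it without wild-type replicate 1 (log2 fold change 1.63, edgeR adjusted p = 0.00225). Without wild-type replicate 2 the log2 fold change was 0.58 (edgeR adjusted p = 0.225).

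The form of 28 nt, the most abundant stem-ending member, fell. Its level was 92061, 83422 and 42879 CPM in wild-type replicates 1 to 3 and 37439, 29911 and 40827 CPM in knockout replicates 1 to 3. The groups did not overlap, but wild-type replicate 3 lay close to knockout replicate 3. The log2 fold change was -1.01 (SE 0.350, edgeR adjusted p = 0.0304), and without wild-type replicate 3 it was -1.23 (0.00111). Without any 1 of the other 5 libraries the adjusted p lay between 0.0809 and 0.145, and the call ended.

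The next longer forms had wider overlap. The form of 29 nt had 30389, 30885 and 12864 CPM in wild-type and 13382, 9576 and 16245 CPM in knockout replicates 1 to 3. Wild-type replicate 3 lay within the knockout range, and the log2 fold change of -0.92 (SE 0.364) missed the threshold (edgeR adjusted p = 0.0521; 0.00289 without wild-type replicate 3). With each other library left out in turn, the edgeR adjusted p lay between 0.0809 and 0.225. The form of 30 nt, at the end of the anticodon stem, had 32967, 24176 and 14579 CPM in wild-type and 19138, 14896 and 23848 CPM in knockout replicates 1 to 3. Its log2 fold change was -0.31 (95% interval -1.05 to 0.43), which turned to 0.03 without wild-type replicate 1.

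The most abundant loop-ending member, of 32 nt, was not called. It had 94399, 74189 and 63080 CPM in wild-type and 99379, 82935 and 79797 CPM in knockout replicates 1 to 3. The log2 fold change was 0.18 (95% interval -0.51 to 0.86, edgeR adjusted p = 0.661). The form of 31 nt had 102512, 85281 and 42022 CPM in wild-type and 57807, 49300 and 63423 CPM in knockout replicates 1 to 3. Its log2 fold change was -0.43 (95% interval -1.23 to 0.37, edgeR adjusted p = 0.334), and with wild-type replicate 3 left out it fell (-0.68, edgeR adjusted p = 0.0215). Without wild-type replicate 1 it was -0.12 (edgeR adjusted p = 0.799). These intervals allow changes in either direction.

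Ratios between the 3 main forms, chosen after their values were seen and so given without a test, describe the same shift inside each library. The log2 ratio of the form of 31 nt to that of 28 nt was 0.16, 0.03 and -0.03 in wild-type and 0.63, 0.72 and 0.64 in knockout replicates 1 to 3. That of 32 nt to 28 nt was 0.04, -0.17 and 0.56 in wild-type and 1.41, 1.47 and 0.97 in knockout replicates 1 to 3. The groups did not overlap in either ratio. Between the loop-ending forms they did. The log2 ratio of 32 nt to 31 nt was -0.12, -0.20 and 0.59 in wild-type and 0.78, 0.75 and 0.33 in knockout replicates 1 to 3, with wild-type replicate 3 among the knockout libraries.

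Further into the anticodon loop the members did not move as a block. The GCC form of 34 nt had 12101, 13882 and 7432 CPM in wild-type and 6002, 4847 and 7993 CPM in knockout replicates 1 to 3. It fell, by a log2 fold change of -0.82 (SE 0.305) at an edgeR adjusted p of 0.0397, although knockout replicate 3 lay above wild-type replicate 3. The call held without wild-type replicate 3 (0.00713). It ended without any 1 of the other 5 libraries (edgeR adjusted p of 0.0542 to 0.186), with size factors of the DESeq2 kind (0.0716) and with DESeq2's Wald test (0.102).

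The GCC form of 35 nt, 1 base longer, had 7975, 7040 and 6527 CPM in wild-type and 9003, 6148 and 11060 CPM in knockout replicates 1 to 3. Its log2 fold change was 0.28 (95% interval -0.32 to 0.88, edgeR adjusted p = 0.400). The GCC form of 33 nt had 29839, 30752 and 11292 CPM in wild-type and 22631, 13537 and 19830 CPM in knockout replicates 1 to 3, a log2 fold change of -0.36 (95% interval -1.20 to 0.48, edgeR adjusted p = 0.452). It passed without wild-type replicate 3 (-0.64, edgeR adjusted p = 0.0483). With each other library left out in turn, its log2 fold change lay between -0.38 and -0.08 (edgeR adjusted p of 0.521 to 0.906).

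Both tested members of the CCC form rested on few counts. The CCC form of 33 nt had 31, 23 and 18 counts in wild-type and 13, 13 and 17 in knockout replicates 1 to 3. It did not overlap in CPM, but its log2 fold change of -0.66 (SE 0.338) had an edgeR adjusted p of 0.120. The CCC form of 34 nt had 8 to 29 counts in wild-type libraries and 9 to 15 with the knockout, and its log2 fold change of -0.47 (SE 0.421) had an edgeR adjusted p of 0.369. In all, 4 of the 13 tested members did not overlap between genotypes, beside 58.7% of all fragments tested.

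Summed by where they end, the members passed no threshold with all 6 libraries. In this fit each class replaced its members in the table, and 54.7% of all 225 rows tested were called. Stem-ending members had 150901, 137575 and 75280 CPM in wild-type and 81926, 57252 and 86568 CPM in knockout replicates 1 to 3. Their log2 fold change was -0.69 (95% interval -1.44 to 0.06, edgeR adjusted p = 0.108), and without wild-type replicate 3 it was -1.10 (edgeR adjusted p = 5.53e-04). With each other library left out in turn, the edgeR adjusted p lay between 0.165 and 0.279.

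Loop-ending members had 236716, 210244 and 137179 CPM in wild-type and 214631, 147819 and 186864 CPM in knockout replicates 1 to 3. The log2 fold change was -0.09 (95% interval -0.81 to 0.63, edgeR adjusted p = 0.831). It was 0.07 without wild-type replicate 1 and -0.45 without wild-type replicate 3 (edgeR adjusted p = 0.0582). The sum of the members of 19 to 25 nt was 0.62 higher on the log2 scale (SE 0.261, edgeR adjusted p = 0.0700), and 0.35 higher without wild-type replicate 2 (edgeR adjusted p = 0.370). Its groups did not overlap, which held for 60.9% of all rows in this fit.

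The members as a whole did not pass the threshold either. Their share of library counts was 31.3% ± 6.93 (SD, n = 3) for wild-type cells and 25.8% ± 2.09 (SD, n = 3) for the knockout (exact permutation p = 0.3, two-sided). The difference was -5.48 points with all libraries, -9.41 without wild-type replicate 3 and -2.89 without wild-type replicate 1. As a total in edgeR the log2 fold change was -0.36 (95% interval -1.06 to 0.34, edgeR adjusted p = 0.350), in a fit in which 56.0% of all 200 rows tested were called. It was -0.05 without wild-type replicate 1, and without wild-type replicate 3 it was -0.55 (edgeR adjusted p = 0.0123).

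The family most like the members in sequence carries the substitution T5G and no other, counted from the first base. The 2 are shown at 27 nt with that base in capitals.
tRF-27-PNR8YP9LON3: gcatTggtggttcagtggtagaattct
tRF-27-P4R8YP9LON3: gcatGggtggttcagtggtagaattct
The log2 ratio of the members to this family was 4.69, 5.33 and 3.79 in wild-type and 2.92, 2.59 and 3.09 in knockout replicates 1 to 3 (exact permutation p = 0.1, and 0.15 adjusted over the 3 families compared). The groups did not overlap and the difference was -1.74. However, the table holds this family only at 19 to 27 nt, lengths at which the members have 40 to 158 counts per library.

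At those matched lengths, a comparison chosen after seeing the data, the log2 ratio was -1.55, -1.73 and -2.14 in wild-type and -2.36, -1.99 and -2.30 in knockout replicates 1 to 3. The difference was -0.41, and the groups overlapped (exact permutation p = 0.2). Members of 19 to 27 nt took 0.482%, 0.254% and 0.385% of library counts in wild-type and 0.687%, 0.978% and 0.650% in knockout replicates 1 to 3, with no overlap. Of the base-changed family, the forms of 25, 26 and 27 nt rose by log2 fold changes of 1.84, 1.51 and 1.33 (SE 0.261, 0.284 and 0.322; edgeR adjusted p = 3.04e-04, 0.00164 and 0.00642). For the members of 25, 26 and 27 nt these were 0.90, 1.56 and 0.94, from the same fit.

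The comparison with the 5' fragments of tRNA-Glu (code 87R8WP) turned with the lengths used. The log2 ratio of the totals, members over Glu, was 1.64, 1.73 and 1.58 in wild-type and 1.93, 1.74 and 1.93 in knockout replicates 1 to 3, a difference of 0.22 with no overlap (exact permutation p = 0.1, adjusted p = 0.15). However, the Glu rows end at 30 nt in the table. At the matched lengths of 19 to 30 nt, also chosen after seeing the data, the log2 ratio was 0.29, 0.40 and 0.10 in wild-type and 0.11, -0.06 and 0.29 in knockout replicates 1 to 3. The difference was then -0.15, and the groups overlapped (exact permutation p = 0.5). Relative to the 5' fragments of tRNA-Val (code 79MP9P) the log2 ratio was 2.76, 2.58 and 1.27 in wild-type and 2.03, 1.59 and 1.79 in knockout replicates 1 to 3, with overlap (exact permutation p = 0.4, adjusted p = 0.4). That difference was -0.40, and it ran from -0.87 without wild-type replicate 3 to -0.12 without wild-type replicate 1. Names of these 2 families rest on general knowledge of the sequences.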

How the data were processed

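The authors deposited raw counts of reads per tRNA fragment for each of the 6 libraries. Their design text names MINTmap for mapping and DESeq2 for the comparison. FastQC, cutadapt and the GRCh38 (hg38) build appear in the submitters' processing notes, without versions or filters. All 3443 names were decoded, at 5 bases per 2 symbols, to 3443 different sequences. The longest member of each form was searched in 206694 GENCODE 29 transcripts.

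Fragments were kept by filterByExpr (minimum count 10), TMM-scaled and tested two-sided, knockout minus wild-type, in edgeR 4.0.16 (R 4.3.3), with Benjamini-Hochberg adjustment over all rows and a threshold of 0.05. SE is the log2 fold change over the root of F, and intervals use edgeR's total degrees of freedom. Values per library were compared by exact permutation. The edgeR test was also run on simulated counts, with an outcome that is not given here. End classes follow the cloverleaf, and the class of 38 nt or more had 0 members, so adjustment was over 3 classes. Alternatives were other scalings, other count minimums, DESeq2 1.42.0, the replicate number as a block, other denominators and lengths, and leaving out each library. All tested members are named. Values in every library are given for members with a mean of 50 or more counts and for called ones. Members and lists were chosen with earlier results of these data known.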

Additional observations from a re-analysis of the deposited data

How the results depend on the processing

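The number of members called lower (2) was 1 with size factors of the DESeq2 kind, 1 with upper quartile scaling, 1 with DESeq2's Wald test, 0 with no low-count filter and 0 with a replicate block. It was 3 with library totals only and 3 at a minimum count of 50, where the form of 29 nt also passed (edgeR adjusted p of 0.0459 and 0.0398). It ran from 0 to 5 when 1 library was left out, with 5 without wild-type replicate 3 and 0 without each other library. The number called higher (2) was 3 with size factors of the DESeq2 kind, where the form of 27 nt also passed (edgeR adjusted p = 0.0388), 1 with no low-count filter, 1 with DESeq2's Wald test, 0 at a minimum count of 50, where neither higher member was tested, and 1 to 3 with 1 library left out. The log2 fold change without 1 library ran from -1.10 to -0.50 for stem-ending members, from 0.35 to 0.77 for members of 19 to 25 nt, from -0.45 to 0.0706 for loop-ending members, from -0.55 to -0.0481 for all members, from -0.74 to -0.25 for the Glu family, from -0.00279 to 0.32 for the Val family and from -0.52 to 0.0323 for the form of 30 nt. At a minimum count of 50 the Glu total passed (-0.82) and the Val total turned to -0.14, and members of 19 to 25 nt gave no value. The log2 ratio of members to the Glu family differed by -0.15 at lengths 19 to 30 only, chosen after seeing the data. The loop-to-stem ratio (0.53 to 0.67), the mean length difference (0.280 to 0.366 nt) and the share of loop-ending members (7.86 to 9.84 points) kept their direction without each library.

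The replicate numbers are not stated to pair libraries, so they were not taken as pairs in the main fit. Same-numbered libraries of the 2 genotypes did not all deviate together (correlations of 0.371, -0.0703 and 0.107 over tested fragments). With a replicate block the form of 28 nt had a log2 fold change of -0.96 (edgeR adjusted p = 0.0614), the GCC form of 34 nt -0.81 (0.0908), the form of 26 nt 1.52 (0.00357) and the form of 25 nt 0.92 (0.0369). The cause of these differences was not tested. Depth limits the members under 28 nt, which had 14 to 92 counts per library at 27 nt and fewer below.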
